A study of Mus musculus with 4 samples.

Results

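The genes of cell division described here comprise regulators of the G1 phase, genes of DNA replication in S phase, genes of the G2 phase and mitosis, and inhibitors of the cycle. Of 50 entries, Geminin is the protein name of Gmnn and repeats it, which leaves 49 genes. A gene was measured if a probe set on the array named it and no other gene in the platform annotation. This held for 48 of the 49 genes, among 18193 genes measured in all; Ccnb1 was not analysed here. A gene with several probe sets was given the value of the probe set with the highest mean log2 signal. The samples were 4 Affymetrix Mouse Genome 430 2.0 arrays hybridised with RNA of molar teeth from Swiss-Webster mice. Teeth of 60 pups of both sexes, aged 1 to 10 days after birth, had been pulled by hand and pooled. All 4 arrays form 1 group from 1 pool, and there was no treatment, mutant allele or second tissue among them. The spread between arrays is therefore technical, and no comparison between ages or animals was possible.

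Cells divide in a fixed order of phases. D-type cyclins with Cdk4 or Cdk6, and then E-type cyclins with Cdk2, phosphorylate the retinoblastoma protein and release E2F factors, which switch on genes of DNA replication. The Mcm helicase then opens the DNA, and A- and B-type cyclins with Cdk1 drive mitosis, which ends when Cdc20 and the anaphase-promoting complex degrade the cyclins. Inhibitors of the Cip/Kip family (Cdkn1a, Cdkn1b, Cdkn1c) and the Ink4 family (Cdkn2a to Cdkn2d) hold the kinases back. In growing teeth, epithelial cells of the cervical loop and cells of the dental mesenchyme divide, and ameloblasts and odontoblasts leave the cycle before they lay down matrix.

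Signals are MAS5 units on a linear scale, on which brightness also depends on the probe, so signals of different genes do not rank their mRNA amounts. A gene counted as above background where, on all 4 arrays, its signal was higher than the 95th percentile of 86 probe sets for olfactory, vomeronasal and taste receptors. That threshold lay between 996 and 1295 signal units over the arrays. By this rule 39 of 48 members (81.2%) were above background, against 51.5% of all 18193 genes. The median log2 signal of the members was 11.99 ± 0.044 (SD, n = 4 arrays), against 10.72 ± 0.064 for all genes measured and 12.25 ± 0.013 for the genes above background. With limma, log2(signal / threshold) was tested against 0 (one-sided) across all genes, and 40 members were called at a Benjamini-Hochberg adjusted p under 0.05, against 51.1% of all genes. The probe set of each gene was chosen by its signal on the same arrays, and the p-values take no account of that choice. Arrays have no read depth; precision is limited by their number, 4.

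**Figure D1:**
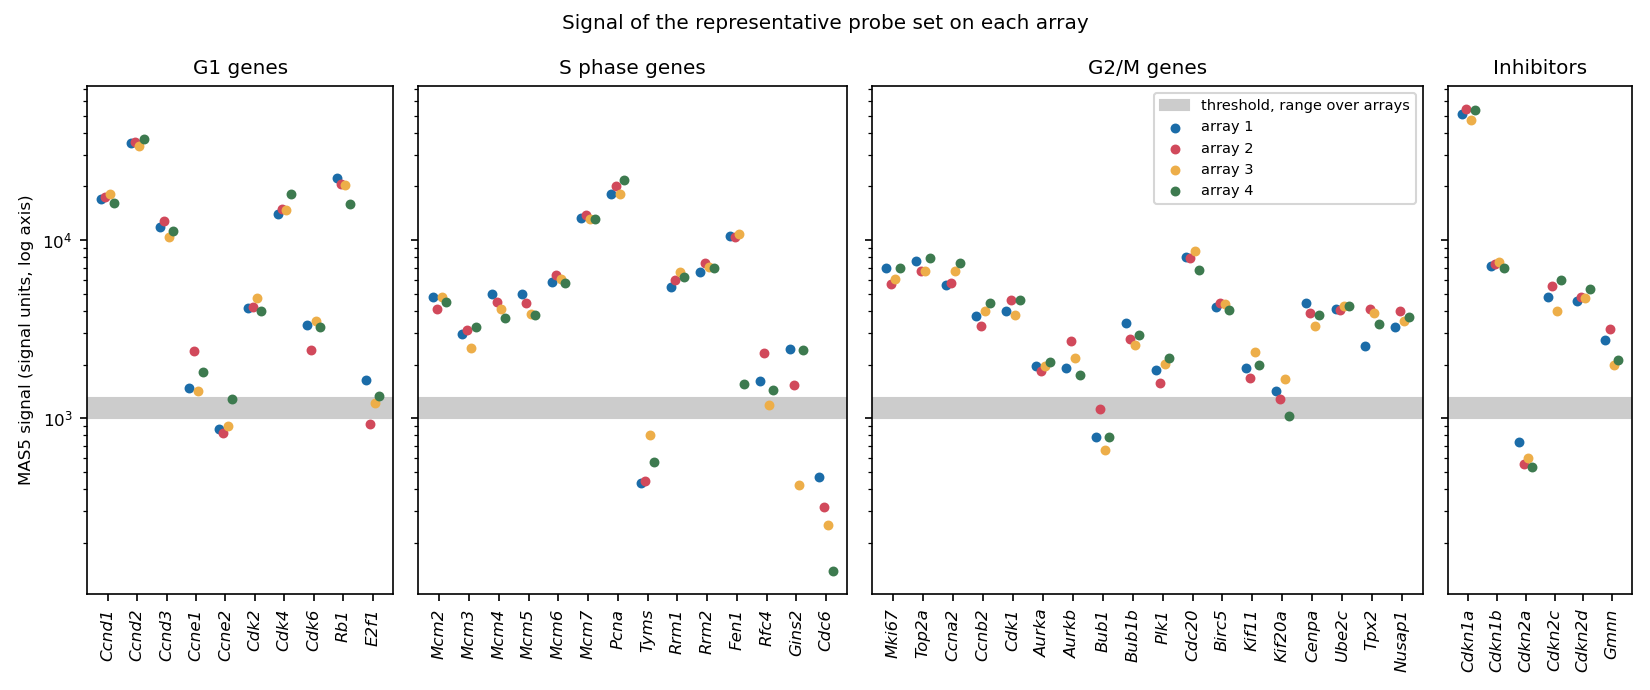
MAS5 signal (log axis) of the representative probe set of each of the 48 measured members on each of the 4 arrays (1 point per array), by group. The grey band is the range of the background threshold over the arrays, 996 to 1295, and 39 members lie above it on every array.

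All 7 genes listed for ameloblasts and all 6 listed for odontoblasts (Dspp, Dmp1, Col1a1, Col1a2, Ibsp and Phex) were above background. Whether other tissue in the pool added to these signals was not tested. Of the listed markers of other cells, 5 of 5 endothelial and 4 of 4 oral epithelial genes were above background. The median log2 signal was 14.63 for the oral epithelial list and 11.63 for the endothelial list, against 12.25 for all genes above background. For the ameloblast and odontoblast lists it was 15.70 and 15.91. The counts above background were 5 of 9 measured genes for leukocytes (55.6%) and 2 of 5 for red cells (40.0%). These shares are near or below the 51.5% of all genes, and limma called 3 of the 9 leukocyte genes. The median log2 signal was 10.49 for the leukocyte list and 10.35 for the red cell list. The brightest gene had a mean of 20413 signal units in the leukocyte list and 4418 in the red cell list, so single genes there were well above background. Some genes listed for leukocytes and for red cells were not measured. The part of each cell type in the signals of cell division was not tested. In a pool of whole teeth, fewer dividing cells and less of a transcript per cell cannot be told apart.

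Among the G1 genes, the D cyclins, Cdk4, Cdk6, Cdk2 and Rb1 were above background, while Ccne2 and E2f1 were not. The count was 8 of 10, or 80.0%, against 51.5% of all genes. The median log2 signal of the group was 12.77 ± 0.049 (SD, n = 4 arrays). Cyclin D genes are induced by growth signals and start the passage through G1. Ccnd2 had signals of 35182, 35722, 33784 and 37106 on the 4 arrays. Ccnd1 had 17051, 17446, 18221 and 16078, and Ccnd3 had 11774, 12779, 10463 and 11274. All 3 cyclin D genes stayed far over the threshold on every array, with a lowest ratio of 8.08 for Ccnd3. For Ccnd3 this rests on 1 of 3 probe sets, since the others, with means of 356 and 333, exceeded the threshold on 0 arrays, and the call ended with the median probe set. The limma adjusted p was 1.73e-20 for Ccnd2, 2.05e-19 for Ccnd1 and 9.94e-18 for Ccnd3.

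The kinase partners of the D cyclins were both detected. Cdk4 had signals of 13946, 14944, 14798 and 18107, and Cdk6 had 3313, 2420, 3515 and 3236. Cdk4 was brightest on array 4, and Cdk6 was dimmest on array 2. Rb1, the retinoblastoma gene, which restrains E2F until it is phosphorylated, had 22367, 20610, 20381 and 16021, so that it was lowest on array 4. Cdk2, the partner of the E cyclins, had 4143, 4188, 4696 and 4019. Its second probe set had a mean of 75.9 and exceeded the threshold on 0 arrays, and Cdk2 was not above background without probe sets that carry a shared-sequence suffix.

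The E cyclins and E2f1 lay near the threshold. Ccne1 had signals of 1478, 2389, 1421 and 1817, which exceeded the threshold on all 4 arrays, by 0.59 on the log2 scale on average (limma adjusted p = 0.00721). It was not above background with a threshold from testis and retina probe sets or with the median of its 2 probe sets. Ccne2 had 867, 828, 902 and 1273, and only array 4 exceeded its threshold. E2f1, the activating E2F factor, had 1630, 924, 1213 and 1332 and exceeded it on 2 arrays, with a limma adjusted p of 0.572. Transcripts of genes that missed the threshold may still have been present.

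Genes of S phase were above background for 10 of 14 members, or 71.4%, against 51.5% of all genes. All 6 Mcm genes, Pcna, both ribonucleotide reductase genes and Fen1 were among the 10. The median log2 signal of the group was 12.10 ± 0.17 (SD, n = 4 arrays). The Mcm2 to Mcm7 proteins form the ring-shaped helicase that is loaded at replication origins. Mcm7 had signals of 13252, 13867, 13128 and 13050, the closest agreement between arrays of any member (SD of log2 signal 0.040). Mcm6 had 5783, 6379, 6004 and 5730, and the remaining helicase genes Mcm2, Mcm4, Mcm5 and Mcm3 had mean signals of 4554, 4296, 4276 and 2950. None of the 6 fell to the threshold on any array, and their mean signals ranged from 2.54-fold to 11.5-fold over it. For Mcm3 the call rests on 1 of its 5 probe sets, since the remaining 4 exceeded the threshold on 0, 1, 3 and 3 arrays, and it was lost without suffixed probe sets and with the median probe set.

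Pcna, the sliding clamp that holds DNA polymerase on its template, had signals of 18210, 20066, 18228 and 21729, a mean 16.9-fold over the threshold (limma adjusted p = 9.47e-20). Rrm1 and Rrm2 encode the subunits of ribonucleotide reductase, which makes deoxyribonucleotides. Rrm1 had 5472, 5995, 6632 and 6229, and Rrm2 had 6596, 7446, 7024 and 6928. Over the arrays the lowest ratio to the threshold was 4.92 for Rrm1 and 5.42 for Rrm2.

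Fen1, the nuclease that trims Okazaki fragments, gave discordant values. Its representative probe set had signals of 10527, 10355 and 10762 on arrays 1 to 3 and 1545 on array 4. The SD of its log2 signal was 1.39, against a median of 0.15 for the 2650 genes above background with a mean log2 signal between 12 and 13. Its log2 signal over the threshold was 2.50 on average and 3.23 without array 4. The second Fen1 probe set, with signals of 2296, 2924, 1903 and 2757, showed no such drop on array 4. Both probe sets were above background, but with the threshold at the 99th percentile Fen1 was not.

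The 4 members of the S phase group that were not above background were Rfc4, Gins2, Tyms and Cdc6. Rfc4, a subunit of the clamp loader, had 1606, 2326, 1188 and 1440 and missed the threshold on array 3. The limma test called it (adjusted p = 0.0438), and it was above background without array 3. Gins2, a subunit of the GINS complex of the replicative helicase, had 2443, 1529, 421 and 2409, and it too was above background without array 3. The limma adjusted p of Gins2 was 0.374. Cdc6, which loads the Mcm ring, had 470, 318, 252 and 139, below the threshold on every array.

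Tyms, thymidylate synthase, had signals of 430, 443, 802 and 565 on the brightest of its 4 probe sets, below the threshold on each array. A further probe set names Tyms together with a Tyms pseudogene, Tyms-ps, and was not used for the gene. That probe set had 2505, 2447, 1916 and 2159, above the threshold on all 4 arrays. The value given for Tyms rests on the probe sets that name it alone.

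**Figure D2:**
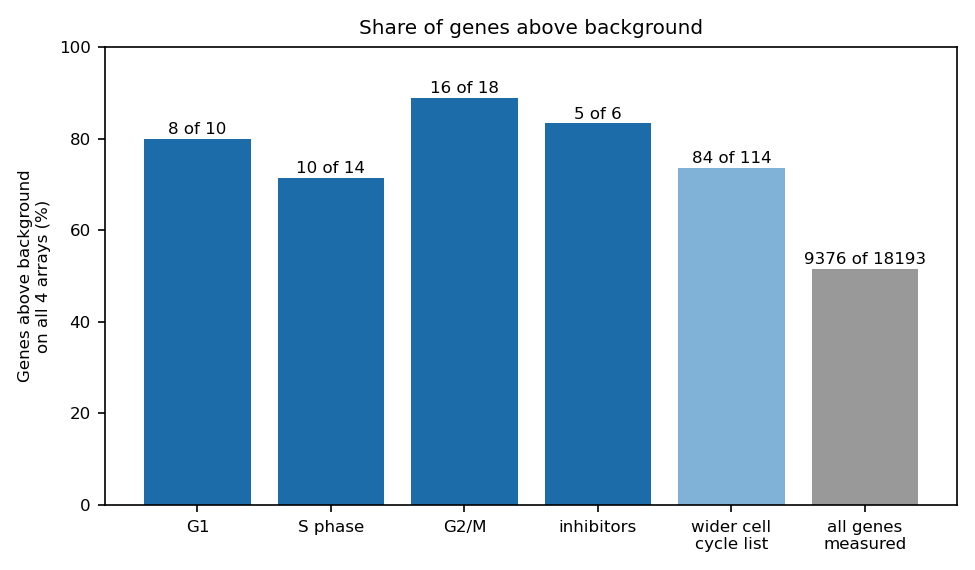
Share of genes above background on all 4 arrays (bars, in percent, with the counts above them) for the 4 groups of members, the wider cell cycle list and all genes measured. The member groups stand at 71.4% to 88.9%, the wider list at 73.7% and all genes at 51.5%.

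Genes of G2 and mitosis were above background for 16 of 18 measured members, or 88.9%, against 51.5% of all genes. The median log2 signal of the group was 11.86 ± 0.063 (SD, n = 4 arrays). They covered the mitotic cyclins and their kinase, the Aurora and Polo kinases, the spindle checkpoint, spindle motors and the machinery of cyclin destruction. The means of the members above background ranged from 1905 to 7843 signal units. Mki67, the Ki-67 protein used as a marker of cycling cells, had signals of 6952, 5693, 6059 and 7009. Top2a, the topoisomerase that untangles sister chromatids, had 7594, 6713, 6737 and 7883. On arrays 1 and 4 both genes were higher than on arrays 2 and 3. Top2a was not above background without suffixed probe sets or with the median probe set, since its remaining 2 probe sets exceeded the threshold on 0 arrays.

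The cyclins that act with Cdk1 were above background as far as they were measured. Ccna2, cyclin A2, had signals of 5587, 5736, 6667 and 7399, and Ccnb2, cyclin B2, had 3729, 3275, 3998 and 4426. Cdk1, the mitotic kinase itself, had 4004, 4591, 3782 and 4600. The arrays agreed for the 3 genes to an SD of log2 signal between 0.14 and 0.19, and the limma adjusted p-values were 1.66e-15, 1.77e-11 and 4.35e-12 in the order given.

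Of the mitotic kinases, Aurka, which matures spindle poles, had 1966, 1840, 1972 and 2053, and Aurkb, of the chromosomal passenger complex, had 1905, 2697, 2173 and 1755. Plk1, the Polo-like kinase, had 1864, 1578, 2006 and 2171. These 3 genes were above background on every array by a narrow margin, with means 1.64-fold to 1.82-fold over the threshold and limma adjusted p-values from 8.98e-05 to 6.53e-04. With the median probe set, Aurka and Aurkb were not above background. Birc5, survivin, which belongs to the same passenger complex as Aurkb, had 4190, 4428, 4358 and 4064.

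The spindle checkpoint genes differed. Bub1b, for the checkpoint protein BubR1, had signals of 3435, 2794, 2589 and 2930, but was not above background with the median of its 3 probe sets. Bub1, a checkpoint kinase, had 785, 1133, 660 and 784 and exceeded the threshold on array 2 only. The signal of Bub1 was not above background with any of its probe sets. Cdc20, the activator of the anaphase-promoting complex and the target of the checkpoint, had 8030, 7876, 8641 and 6825, and Ube2c, the ubiquitin-conjugating enzyme of that complex, had 4101, 4037, 4289 and 4240. The limma adjusted p was 3.63e-16 for Cdc20 and 3.06e-12 for Ube2c.

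Genes of spindle and centromere completed the group. Cenpa, the centromeric histone, had 4437, 3913, 3270 and 3777. Its remaining probe sets, with means of 562 and 289, exceeded the threshold on 0 arrays, and the call ended without suffixed probe sets and with the median probe set. Nusap1, a microtubule-binding protein of the spindle, had 3249, 3989, 3490 and 3705, and Tpx2, which activates Aurka on the spindle, had 2525, 4124, 3905 and 3375. Tpx2 was lowest on array 1 with this probe set and with a second one (2592, against 3221 to 3851). Kif11, the kinesin that pushes spindle poles apart, had 1903, 1683, 2360 and 1996, above background by a mean of 1.70-fold. Kif20a, a kinesin of the cleavage furrow, had 1412, 1273, 1669 and 1022, missed the threshold on array 4 alone, and was above background without that array.

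Inhibitors of the cycle were above background for 5 of 6 genes, or 83.3%, against 51.5% of all genes. The list's median log2 signal was 12.26 ± 0.16 (SD, n = 4 arrays). Cdkn1a, the p21 protein, an inhibitor of cyclin-dependent kinases that p53 induces, had signals of 51043, 54326, 47320 and 53658. This was a mean 44.5-fold over the threshold (limma adjusted p = 1.45e-20). Its second probe set had 4618, 2820, 5304 and 5559 and was also above background. Cdkn1b, the p27 inhibitor linked to cells at rest, had 7154, 7349, 7513 and 6967. The second Cdkn1b probe set had a mean of 775 and exceeded the threshold on 1 array.

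The Ink4 inhibitors block Cdk4 and Cdk6, and they were not uniform. Cdkn2c (p18) had signals of 4805, 5508, 4003 and 5938, and Cdkn2d (p19) had 4520, 4787, 4716 and 5291. Cdkn2a, whose locus encodes p16 and the unrelated p19Arf protein and whose expression is known from ageing cells, had 736, 551, 596 and 531, below the threshold on every array. The single Cdkn2a probe set does not separate the products here. Cdkn2b, which is not a member but belongs to the wider list described below, had 2140, 1845, 1738 and 1869. It was above background on all 4 arrays (limma adjusted p = 8.74e-04). Gmnn, geminin, which blocks reloading of the Mcm ring until mitosis, had 2739, 3182, 1983 and 2127.

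Probe sets of the same gene often disagreed. The 48 members had 110 probe sets that name 1 gene, and 65 of these (59.1%) passed the threshold on every array, against 42.5% of all 34945 such probe sets. Of 34 members with more than 1 probe set, 8 had all of them above background. Of the 29 members above background with several probe sets, 21 had at least 1 that was not. These counts within genes were not made over all genes, so they do not set the members apart from other genes. Ccnd2 had 7 probe sets with mean signals from 1247 to 35448, of which 6 were above background. Rb1 had a second probe set with a mean of 31.6, and Top2a had probe sets with means of 841 and 99.6 beside the 7232 of its representative. These differences lie within a gene and the same RNA.

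**Figure D3:**
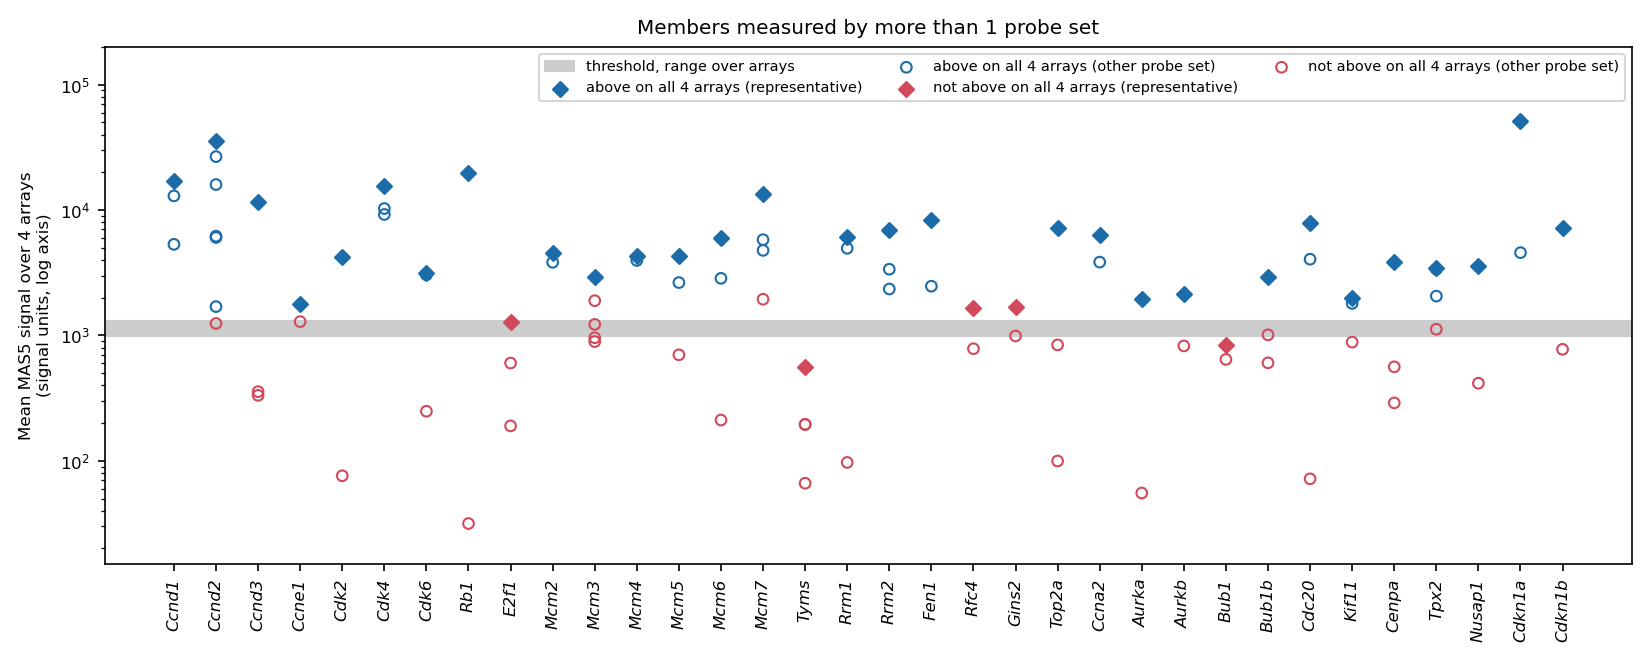
Mean MAS5 signal over the 4 arrays (log axis) of every probe set of the 34 members with more than 1, with representative probe sets as diamonds and others as open circles. Blue marks probe sets above background on all 4 arrays and red those that were not; 21 members above background have at least 1 red circle.

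In every band of mean log2 signal, the median spread between arrays was lower for members above background than for all genes above background. The difference was not tested. The median SD of log2 signal was 0.14 for the 39 members above background, against 0.16 for all 9376 such genes. Among members with a mean log2 signal between 12 and 13 it was 0.12 (18 members), against 0.15 for all genes above background in that band. Fen1 stood out among them, and Gins2 among the members not above background, with an SD of 1.19. No array carried a shift of a whole group: the median deviation of a group's members from their own means lay between -0.077 and 0.075 on the log2 scale over the 4 groups and 4 arrays.

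**Figure D4:**
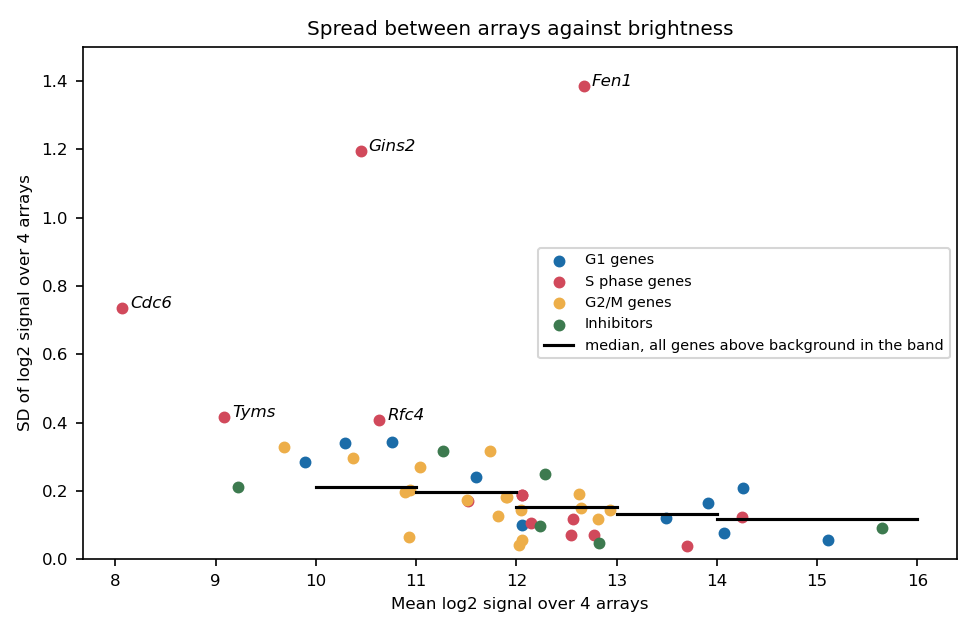
SD of log2 signal over the 4 arrays against mean log2 signal for each member (points, coloured by group), with black lines for the median SD of all genes above background in each band of brightness. Fen1 (SD 1.39) and Gins2 (1.19) lie far above the lines.

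A wider list of cell cycle genes that are not members gave 84 of 114 measured genes above background, or 73.7%, against 51.5% of all genes. The limma test called 83 of them. By role, 15 of 19 further G1 genes, 27 of 38 further replication genes, 29 of 42 further G2 and mitosis genes and 13 of 15 further brakes and checkpoint genes were above background. The 3 with the highest signal were Btg1, an antiproliferative factor, at 54042 ± 4134 (SD, n = 4 arrays), Cdkn1c, the p57 inhibitor, at 27111 ± 5387, and Rpa1, a single-strand DNA-binding protein, at 19669 ± 704. Those not above background included the germ-line cyclin gene Ccna1 at 138 ± 55.7, Ccnf at 1242 ± 203, Cdc25c at 1040 ± 197, Cdc45 at 1125 ± 303 and Cdc7 at 1048 ± 145.

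The promoters of the members were set beside the grouping by phase. The groups are lists of known genes of each phase, so the motif shares are no independent check of them. Promoter windows were taken from RefSeq (GRCm38.p6) for 37 of the 48 measured members by symbol, which gave 43 windows because 6 genes have a second start site. No window was found for Ccnd1, Ccnd2, Ccne2, Rb1, Mcm4, Gins2, Ccna2, Aurkb, Kif20a, Tpx2 and Gmnn. The 250 bases before each start were searched on both strands for the CHR, the CCAAT box and an E2F motif. The CHR is the cell cycle genes homology region, bound by complexes that regulate mitotic genes (searched as TTTGAA or TTCGAA). The CCAAT box is bound by NF-Y (searched as CCAAT). The E2F motif was searched as TTTGGCGC, TTTGCCGC, TTTCGCGC or TTTCCCGC. No match of one kind overlapped a match of another kind in the 43 windows. The promoters below are those of the pair of members with the highest signal in S phase and in G2 and mitosis, printed 5′ to 3′ on the strand of the gene with the matches in capitals and ending 1 base before the start.

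The S phase examples are Pcna, at chr2:132253181-132253430 on the minus strand, and Mcm7, at chr5:138171884-138172133 and, for a second start site, at chr5:138171267-138171516, both on the minus strand.
Pcna: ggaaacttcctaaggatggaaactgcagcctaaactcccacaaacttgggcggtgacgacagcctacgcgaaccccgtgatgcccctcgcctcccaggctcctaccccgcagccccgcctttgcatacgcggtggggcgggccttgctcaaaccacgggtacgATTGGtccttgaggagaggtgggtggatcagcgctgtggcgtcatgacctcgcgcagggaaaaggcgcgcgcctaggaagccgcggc
Mcm7, first window: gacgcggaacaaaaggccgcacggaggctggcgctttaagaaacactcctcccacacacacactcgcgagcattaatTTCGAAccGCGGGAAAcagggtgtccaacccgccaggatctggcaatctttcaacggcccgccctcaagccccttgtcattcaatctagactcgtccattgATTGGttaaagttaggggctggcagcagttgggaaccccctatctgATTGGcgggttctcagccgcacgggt
Mcm7, second window: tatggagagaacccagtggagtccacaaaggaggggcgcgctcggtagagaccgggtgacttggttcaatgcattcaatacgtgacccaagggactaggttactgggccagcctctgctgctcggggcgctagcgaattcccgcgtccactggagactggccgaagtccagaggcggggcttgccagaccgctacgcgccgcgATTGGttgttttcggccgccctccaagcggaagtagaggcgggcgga
Pcna holds 1 CCAAT box. The first Mcm7 window holds 1 CHR, 2 CCAAT boxes and 1 E2F motif, and the second holds 1 CCAAT box.

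The mitotic examples are Cdc20, at chr4:118437344-118437593, and Top2a, at chr11:99024190-99024439, both on the minus strand.
Cdc20: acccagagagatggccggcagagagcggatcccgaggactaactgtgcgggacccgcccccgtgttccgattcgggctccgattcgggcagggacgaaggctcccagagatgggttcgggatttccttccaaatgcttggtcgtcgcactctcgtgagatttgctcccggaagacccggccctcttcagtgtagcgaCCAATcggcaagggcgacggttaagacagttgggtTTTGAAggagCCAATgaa
Top2a: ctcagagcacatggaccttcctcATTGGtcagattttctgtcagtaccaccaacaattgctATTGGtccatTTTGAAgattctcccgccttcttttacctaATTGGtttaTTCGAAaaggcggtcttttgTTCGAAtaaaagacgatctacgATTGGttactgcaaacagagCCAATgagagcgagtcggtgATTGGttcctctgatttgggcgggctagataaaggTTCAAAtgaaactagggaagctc
Cdc20 holds 1 CHR, whose last base lies 13 bases before the start, and 2 CCAAT boxes. Top2a holds 4 CHR matches and 6 CCAAT boxes. Neither holds an E2F motif of the letters searched.

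Over all windows, the CHR was found in 8 of 14 G2 and mitosis promoters (57.1%), 3 of 14 S phase promoters (21.4%), 0 of 7 G1 promoters and 0 of 8 inhibitor promoters, against 17.1% of all 32851 promoter windows of the same length. The CCAAT box was found in 12 of 14 G2 and mitosis promoters (85.7%), 9 of 14 S phase (64.3%), 2 of 7 G1 (28.6%) and 2 of 8 inhibitor promoters (25.0%), against 33.8% of all windows. At least 2 CCAAT boxes were present in 9 of the 14 G2 and mitosis windows, or 64.3%, against 10.1% of all windows. All 8 G2 and mitosis windows with a CHR also held a CCAAT box. The combination was thus present in 8 of 14 G2 and mitosis windows (57.1%), against 6.02% of all windows. The E2F motif was found in 4 of 14 S phase promoters (28.6%), 1 of 7 G1 (14.3%), 1 of 8 inhibitor (12.5%) and 1 of 14 G2 and mitosis promoters (7.14%), against 1.86% of all windows. The median GC content was 61.6% for members and 52.4% for all windows, and its part in these shares was not tested. Matches are descriptions of these letters and not binding sites, and no test was made of the differences.

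**Figure D5:**
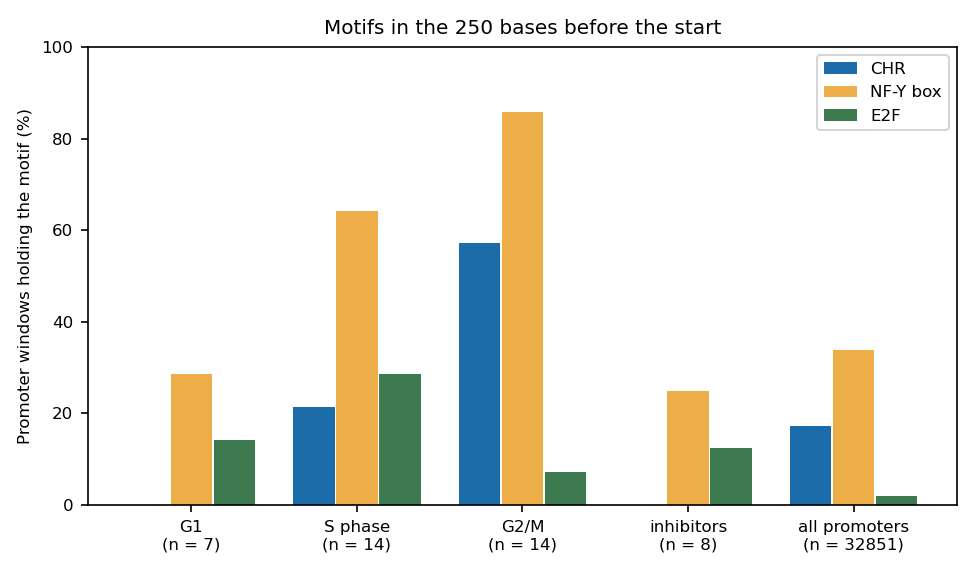
Share of promoter windows (percent, 250 bases before the start) that hold a CHR, a CCAAT box (labelled NF-Y box) or an E2F motif, by group of members and for all promoters, with the number of windows under each group. The CHR bar stands at 57.1% for G2 and mitosis and at 17.1% for all promoters.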

How the data were processed

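RNA of 1 pool of molar teeth was measured on 4 arrays, which form 1 group, with replicate numbers taken from the titles. The deposited values are signal intensity per probe set on a linear scale, made by the authors with MAS5, per the submitters' processing notes. After trimming 2% of the 45101 probe sets at either end, the mean was 2500 on every array, so the values had been scaled. Its version and settings, and a genome build, are not stated. In the platform annotation 34945 probe sets named 1 gene, after 13 controls were left out, and 932 named several. The mismatch subtraction of MAS5 adds noise at low signals. Members and lists were chosen with earlier results of these data known.

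The call used the representative probe set on all 4 arrays. A one-sided limma test (limma 3.58.1, R 4.3.3) with a mean-variance trend was an alternative, with p-values adjusted by Benjamini-Hochberg over 18193 genes. They measure only technical spread. The other alternatives were the 99th and 75th percentile, a testis and retina background set, at least 3 of 4 arrays, quantile normalisation, probe sets without the suffixes _s_at, _x_at and _a_at, any probe set, the median probe set, and leaving out each array. Every member is named in the text. Of the wider list, the 3 brightest genes above background and, alphabetically, up to 5 not above it are named. Cdkn2b is named besides as the remaining Ink4 gene. Promoter windows were searched with Python 3.11.15, and those of the 2 brightest members above background in S phase and in G2/M were printed.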

Additional observations from a re-analysis of the deposited data

Results flagged for a closer look

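A gap test was run on 60 sets of 4 values, 48 of them genes, in which chance picks out about 3 (1 in 20), and it picked out 3. Fen1 had a log2 signal of 10.59 on array 4, against 13.34 to 13.39 on the others. On array 3, 10 S phase members exceeded that array's own threshold, against 12 on each of the others, and 40 of all members did, against 43. The other 3 arrays are tied in both counts, so the chance rate does not hold for them, and array 3 also had the highest threshold, at 1295 signal units.

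A probe set outside the gene values, which names Tyms and Tyms-ps together, had a mean signal of 2257 ± 273 (SD, n = 4 arrays) and was above the threshold on all 4 arrays.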

How the results depend on the processing

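Under those of 13 alternatives that measured them, 29 members kept their call above background, 3 kept a call not above it (Tyms, Cdc6 and Cdkn2a), and 16 changed under at least 1. Of the 48, 7 have only probe sets with shared-sequence suffixes (Mcm7, Birc5, Cdc6, Cdkn2a, Fen1, Aurkb and Kif20a), so they were not measured under the setting without those. The count for all members ranged from 31 of 48, with the median probe set of a gene, to 44, with the 75th percentile, against 42.7% and 65.1% of all genes under the same settings. Probe sets without shared-sequence suffixes gave 31 of 41 members, against 46.9% of all genes. Leaving out 1 array gave 39 to 41 members. Every group count stayed within 1.5 times its main value. Without shared-sequence suffixes the median log2 signal was 12.36 for G1, 11.77 for S phase and 11.71 for G2/M members, and with the median probe set it was 11.29, 11.59 and 10.97, and 12.07 for inhibitors. Without suffixes the log2 signal over the threshold was -4.45 for Cdk2, -0.0014 for Mcm3, -0.46 for Top2a and -1.25 for Cenpa. With the median probe set it was -1.46 for Ccnd3, -0.47 for Top2a, -0.20 for Aurka, -0.39 for Bub1b and -1.19 for Cenpa. Without suffixes, another probe set gives the value of these genes. The setting called the median probe set takes the median signal of a gene's probe sets on each array. A further cause was not tested. Fen1 was not above background at the 99th percentile. No paired analysis was possible because the arrays form 1 group. Ccne1, Rfc4 and Kif20a lie near the threshold, where 1 array or another threshold changed the call.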
